A study of Mus musculus with 25 samples.

Results

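The genes described here are 10 regulators of the G1 phase of the cell cycle in mouse liver: the D-type cyclins Ccnd1, Ccnd2 and Ccnd3, the E-type cyclins Ccne1 and Ccne2, the kinases Cdk2, Cdk4 and Cdk6, and the kinase inhibitors Cdkn1b and Cdkn2c. They were chosen by gene symbol, and all 10 were found in both expression tables, among 46052 loci at 39 weeks and 46499 loci at 20 weeks. Liver RNA came from 25 C57BL/6 mice on a standard diet, carrying either a heterozygous alteration of Ncoa5, which encodes a nuclear receptor coactivator, or wild type alleles. The younger cohort, aged 20 weeks and untreated, held 4 mice labelled Ncoa5+/- and 4 wild type mice. The older cohort, aged 39 weeks, held 5 mice labelled Ncoa5+/- and 3 wild type mice given metformin, a glucose-lowering drug, and 5 mice labelled Ncoa5+/- and 4 wild type mice left untreated. The drug was dissolved in the drinking water, for a daily dose near 250 mg/kg, and treatment ran for 31 weeks, starting when the mice were 8 weeks old. The labels give neither the altered part of Ncoa5 nor any pooling of animals, and each library is treated as 1 mouse.

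In G1, D-type cyclins bind and activate CDK4 and CDK6, which start the phosphorylation of the retinoblastoma protein RB. E-type cyclins with CDK2 continue it, E2F transcription factors are released, and S-phase genes are transcribed. Inhibitors of the CIP/KIP family, such as p27 (Cdkn1b), bind cyclin and kinase complexes, those of the INK4 family, such as p18 (Cdkn2c), bind CDK4 and CDK6, and adult hepatocytes are mostly quiescent and induce cyclin D1 when they re-enter the cycle.

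Values are FPKM, fragment counts scaled by transcript length and library depth, per locus and mouse. Summed over loci, a 20-week library held 695645 to 1613503 FPKM and a 39-week library 857291 to 2089981 FPKM. Depth in reads is unknown, since these tables give no counts. From the steps between low values, the FPKM worth of 1 read spanned 1.71-fold over the 20-week libraries and 1.54-fold over the 39-week libraries. The 50 highest loci took over 70% of the FPKM sum in 3 libraries: Ncoa5+/- metformin replicate 5, untreated Ncoa5+/- replicate 3 at 39 weeks, and wild type replicate 4 at 20 weeks. Ncoa5 itself did not separate the genotype labels: it averaged 3.55 ± 0.352 FPKM (SD, n = 5) in metformin-treated Ncoa5+/- mice against 4.63 ± 1.74 (n = 3) in treated wild type mice. It averaged 3.72 ± 0.714 FPKM (n = 5) in untreated Ncoa5+/- mice against 4.17 ± 0.445 (n = 4) in untreated wild type mice at 39 weeks, and 3.85 ± 0.884 against 4.01 ± 0.944 (n = 4 each) at 20 weeks. The groups overlapped each time, and since the altered part is not given this is no check of the labels, so genotype is used as labelled.

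The levels of the 10 genes, which FPKM makes comparable per length, were ordered in much the same way in both cohorts. At 39 weeks the cohort means were 29.6 FPKM for Cdk4, 24.4 for Ccnd3, 14 for Ccnd1, 10.3 for Cdkn1b, 6.22 for Cdk2, 5.85 for Cdk6, 3.15 for Cdkn2c, 2.08 for Ccnd2, 1.63 for Ccne1 and 1.03 for Ccne2. Each gene overlapped the next over the 17 mice, except that every mouse had more Cdkn1b (8.46 to 12.1 FPKM) than any mouse had Cdk2 (4.68 to 7.85 FPKM). At 20 weeks the order ran Cdk4 (30.4 FPKM), Ccnd3 (20.6), Cdkn1b (11.4), Ccnd1 (7.83), Cdk2 (4.93), Cdkn2c (2.72), Cdk6 (2.09), Ccne1 (1.37), Ccnd2 (1.36) and Ccne2 (0.907). Neighbours overlapped there too, except that all Ccnd3 values lay above all Cdkn1b values and all Cdk2 values above all Cdkn2c values. The cohorts were prepared and sequenced at different facilities and normalized apart, so no value is compared between them. Cdk2 and Cdkn1b were the steadiest at 39 weeks, with a pooled SD within groups of 0.13 on the scale of log2(FPKM + 1) for each. Ccne1 had the greatest with 0.34, close to Ccne2 (0.33) and Ccnd1 (0.32). At 20 weeks Cdk2 had the smallest such SD (0.11) and Ccnd1 the greatest (0.66). This scale narrows the spread of low genes. As a percentage of the group mean FPKM, the 20-week SD was 51.1% to 58.6% for Ccne1 and 34.1% to 58.4% for Ccnd1.

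**Figure D1:**
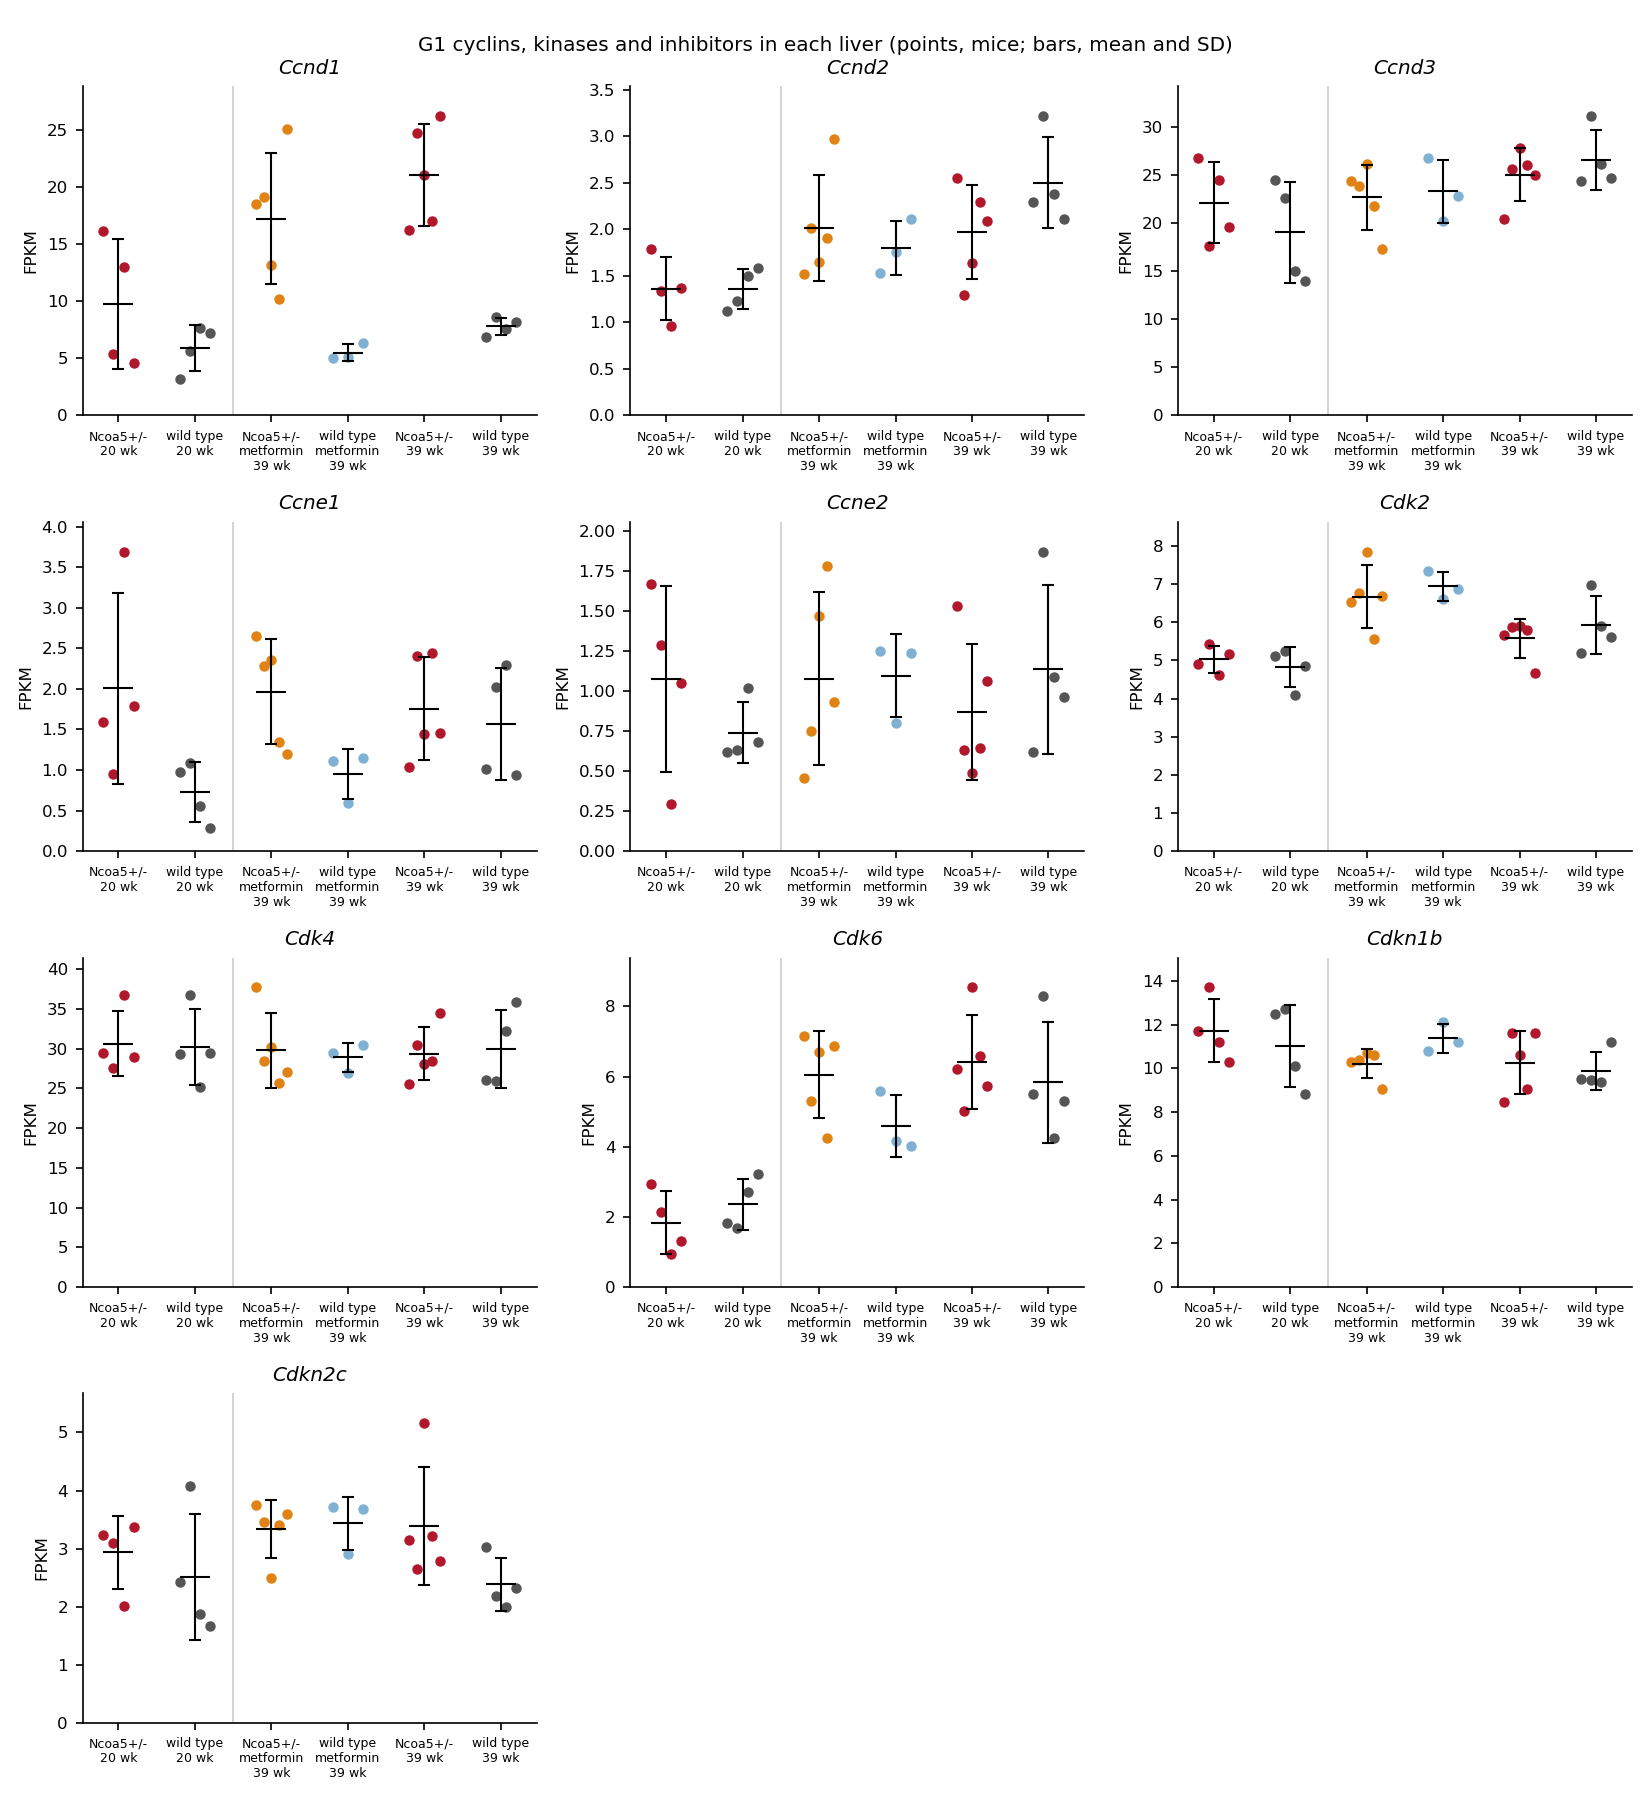
FPKM (vertical axes, from 0) of the 10 genes in each mouse, with the mean and SD of each group; a grey line parts the 20-week from the 39-week cohort. Ccnd1 lies at 10.2 FPKM or above in all 10 Ncoa5+/- mice at 39 weeks and at 8.61 or below in all 7 wild type mice, while the groups of most other genes overlap.

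Ccnd1, which encodes cyclin D1, was higher in the mice labelled Ncoa5+/- at 39 weeks, by 2.46-fold without metformin and by 2.70-fold under metformin as fitted on FPKM + 1, and it was the single gene of the 10 that passed the test. Untreated Ncoa5+/- mice had 16.2, 24.7, 21.0, 17 and 26.2 FPKM, against 6.88, 8.61, 7.58 and 8.16 FPKM in untreated wild type mice. The lowest Ncoa5+/- mouse lay well above the highest wild type mouse. On the log2(FPKM + 1) scale, where limma was fitted over all 11441 loci averaging 1 FPKM or more, the log2 fold change was 1.30 ± 0.20 (SE), with a 95% interval of 0.87 to 1.73 and a Benjamini-Hochberg adjusted p of 0.00655. Of all loci tested, 0.262% passed in this comparison (29 higher and 1 lower) and 1 of the 10 genes passed. Its 2 groups did not overlap, which held for 1.81% of all loci, and an exact two-sided permutation test over the mice gave p = 0.00794, the smallest that 5 against 4 mice allow, or 0.0397 adjusted over the 5 pairwise comparisons of this gene.

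Under metformin the difference in Ccnd1 was of like size. Treated Ncoa5+/- mice had 18.5, 19.1, 13.2, 10.2 and 25.1 FPKM, against 5.06, 5.10 and 6.32 FPKM in treated wild type mice. Again the groups lay apart, and the Ncoa5+/- mice were spread more widely than the wild type mice. limma gave a log2 fold change of 1.43 ± 0.22 with a 95% interval of 0.96 to 1.90 and an adjusted p of 0.00975, where 0.157% of all loci passed, all of them higher. The exact permutation p was 0.0179, the smallest possible with 5 against 3 mice, or 0.0446 adjusted over 5 comparisons. Here 2 of the 10 genes (Ccnd1 and Ccne1) had groups that did not overlap with Ncoa5+/- higher, and 1 (Cdkn1b) with Ncoa5+/- lower, against 3.72% of all loci in either direction. This limma call rests on all 3 treated wild type mice: the adjusted p was 0.0744, 0.0885 and 0.0577 without wild type metformin replicate 1, 2 or 3, and 0.127 when the 2 groups were fitted alone. The exact permutation p was 0.0571 without Ncoa5+/- metformin replicate 1 or 3. Over both treatments together Ccnd1 was 2.58-fold higher (log2 1.37 ± 0.15, limma adjusted p 0.000109), where 0.516% of all loci and 1 of the 10 genes passed.

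No change of Ccnd1 with metformin passed limma in either genotype. Treated Ncoa5+/- mice averaged 17.2 ± 5.76 FPKM against 21.0 ± 4.48 FPKM in untreated Ncoa5+/- mice (SD, n = 5 each), with overlapping groups. Their log2 fold change of -0.31 ± 0.19 had an interval of -0.71 to 0.09 and an adjusted p of 0.665 (limma). In wild type mice the averages were 5.49 ± 0.717 FPKM (n = 3) with metformin and 7.81 ± 0.748 FPKM (n = 4) without, and all 3 treated mice lay below all 4 untreated mice. That exact permutation p was 0.0286, the smallest that 3 against 4 mice allow, and 0.0476 adjusted over the 5 comparisons, whereas limma gave a log2 fold change of -0.44 ± 0.23 with an adjusted p of 0.576. Groups without overlap were found at 8.33% of all loci in this comparison, so the separation of 1 gene of 10 is near the background. The genotype difference under metformin minus that without was 0.13 ± 0.30 (interval -0.50 to 0.76, limma adjusted p 0.991), so neither a like response nor a moderate difference between the genotypes can be told from these mice.

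At 20 weeks the mice labelled Ncoa5+/- fell apart in Ccnd1. They had 16.1, 5.35, 13.0 and 4.55 FPKM, against 3.18, 5.60, 7.62 and 7.21 FPKM in wild type mice. Replicates 1 and 3 lay above every wild type mouse, and replicates 2 and 4 lay within the wild type range. The log2 fold change was 0.53 ± 0.40 with an interval of -0.38 to 1.43 and an adjusted p of 0.634 by limma, and the exact permutation p was 0.314. With 1 mouse left out it ran from 0.25 (without Ncoa5+/- replicate 1) to 0.79 (without Ncoa5+/- replicate 4), with 0.31 without wild type replicate 1 and 0.35 without Ncoa5+/- replicate 3, and with array weights in limma it was 0.08. None of 18 other settings brought it past the threshold. Ccne2 lay under the filter in this cohort, so 9 of the 10 genes were tested and 0 passed, as did 0 of all 10963 loci (0%). At an unadjusted p under 0.05, limma had 1 of the 9 (Ccne1) and 7.48% of all loci, and 0 of the 10 had groups without overlap, against 4.02% of all loci. In the authors' deposited table of this comparison, Ccnd1 had a log2 fold change of 0.72 with q = 0.177.

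Ccnd1 lies at chr7:144929931-144939925 on the minus strand (GENCODE vM21 annotation of GRCm38), and the authors' locus is wider, chr7:144915100-144939869 in both cohorts. Of its 4709 annotated exonic bases, 1100 (23.4%) also belong to exons of the opposite-strand gene Oraov1 (LTO1 in the annotation), and the strand setting of the counting is not given in the sources used here. Oraov1 averaged 9.27 ± 1.78 FPKM in treated Ncoa5+/- mice against 8.05 ± 0.712 in treated wild type mice, and 8.69 ± 1.53 against 8.04 ± 0.541 in untreated mice at 39 weeks. Its log2 fold changes of 0.17 ± 0.14 under metformin and 0.09 ± 0.13 without (limma adjusted p 1.0 and 0.948) did not pass. At 20 weeks it was -0.51 ± 0.22 (limma adjusted p 0.603), opposite in sign to Ccnd1. Reads of the shared bases cannot be told apart, and their part in the Ccnd1 values was not tested.

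The other D-type cyclins did not follow Ccnd1. Ccnd3 (cyclin D3, chr17:47505051-47599691, plus strand) had 20.5, 25.7, 27.9, 26.1 and 25.1 FPKM in untreated Ncoa5+/- mice, against 24.4, 31.2, 26.2 and 24.7 FPKM in untreated wild type mice. Treated mice ranged from 17.3 to 26.2 FPKM with the Ncoa5+/- label and from 20.3 to 26.8 FPKM in wild type. Both pairs overlapped, and the log2 fold changes were -0.08 ± 0.12 without and -0.04 ± 0.13 with metformin (limma adjusted p 0.948 and 1.0). Ccnd2 (cyclin D2, chr6:127125162-127152193, minus strand) was low, at 1.30 to 2.55 FPKM in untreated Ncoa5+/- mice against 2.11 to 3.22 FPKM in untreated wild type mice. Under metformin it had 1.52 to 2.97 FPKM with the Ncoa5+/- label against 1.53 to 2.11 FPKM in wild type. Its log2 fold changes were -0.24 ± 0.15 and 0.09 ± 0.16 (adjusted p 0.913 and 1.0), again with overlapping groups.

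The make-up of the D-type cyclin transcripts therefore differed between the genotype labels at 39 weeks. Ccnd1 made up 43.4% ± 4.87 of the summed FPKM of the D-type cyclins in untreated Ncoa5+/- mice (SD, n = 5), against 21.2% ± 1.49 in untreated wild type mice (n = 4). Under metformin it made up 40.3% ± 10 with the Ncoa5+/- label (n = 5) against 18.0% ± 2.57 in wild type (n = 3). In each case the lowest Ncoa5+/- mouse (37.5% and 30.1%) lay above the highest wild type mouse (23.4% and 20.2%). The summed level was 48.0 ± 5.78 FPKM against 36.9 ± 4.21 FPKM without metformin, and 42.0 ± 4.82 FPKM against 30.6 ± 3.17 FPKM with it. Ccnd3 stayed the most abundant of the group in most livers, and Ccnd1 exceeded it in 1 treated and 1 untreated Ncoa5+/- mouse. At 20 weeks the Ccnd1 share was 27.4% ± 8.88 against 23.3% ± 10.1 (n = 4 each), with overlap. The share restates the difference in Ccnd1 against steady partners and was given no test of its own.

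**Figure D2:**
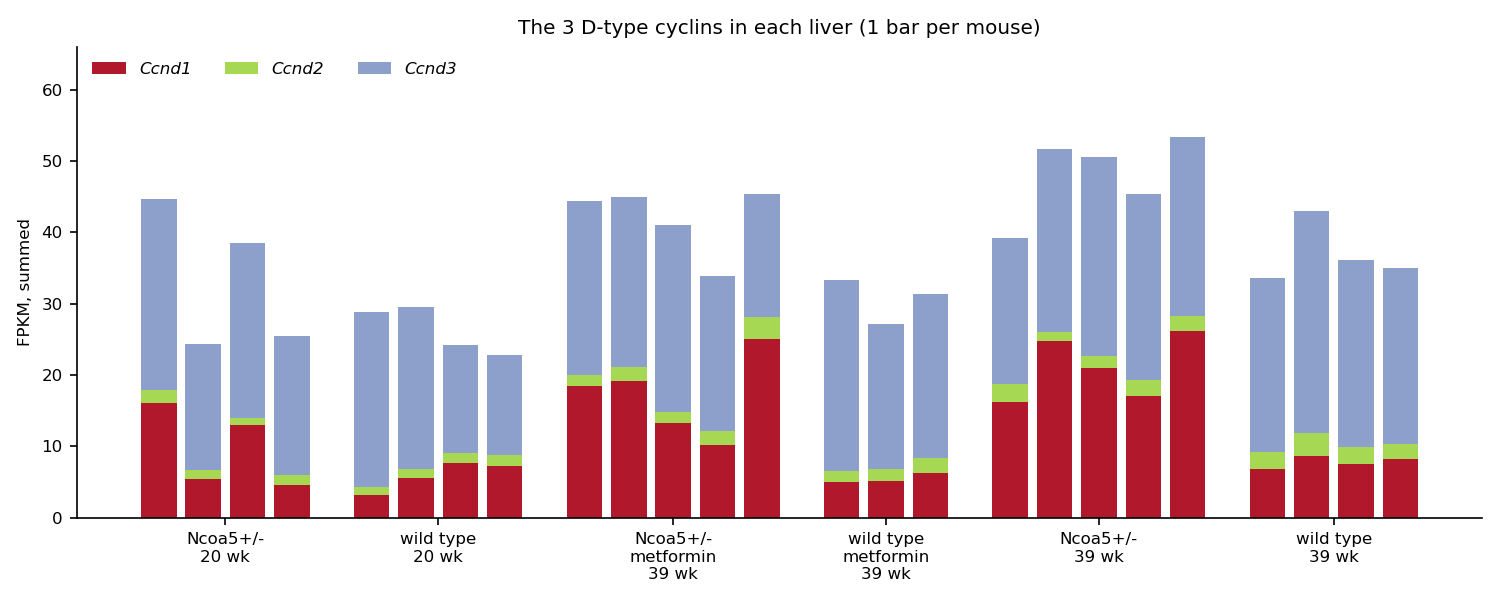
Summed FPKM of Ccnd1, Ccnd2 and Ccnd3, 1 stacked bar per mouse, by group. The Ccnd1 segment is taller in each Ncoa5+/- mouse at 39 weeks (10.2 to 26.2 FPKM) than in any wild type mouse of that cohort (5.06 to 8.61 FPKM), and tall in 2 of 4 Ncoa5+/- mice at 20 weeks.

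D-type cyclins carry a leucine-x-cysteine-x-glutamate motif close to the start of the protein, by which they bind RB. A search of the coding sequences of all 10 genes (GENCODE vM21) found the motif once in each D-type cyclin and not in the other 7. The bases around it are shown because they mark what sets these 3 genes apart within the list, with the 5 codons of the motif in capitals.
Ccnd1: caccagCTCCTGTGCTGCGAAgtggag
Ccnd2: atggagCTGCTGTGCTGCGAGgtggac
Ccnd3: atggagCTGCTGTGTTGCGAGggcacc
The motif begins at codon 5 in Ccnd1 and at codon 3 in Ccnd2 and Ccnd3. Over their aligned coding sequences Ccnd1 was 72.4% identical to Ccnd2 and 68.8% identical to Ccnd3, and Ccnd2 and Ccnd3 were 70.7% identical. The longest stretch shared base for base by Ccnd1 and Ccnd2, searched over the whole coding sequences without alignment, had 20 bases. It is shown because reads are assigned to a gene by where the sequences differ.
Ccnd1 and Ccnd2: ttcaagtgcgtgcagaagga
Cdk4 and Cdk6 (70.8% identical, longest shared stretch 20 bases) and Ccne1 and Ccne2 (62.9%, 18 bases) were similarly distinct.

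The E-type cyclins, partners of CDK2, were among the lowest of the 10 genes, and neither passed limma in any comparison. Ccne1 (cyclin E1, chr7:38097984-38107534, minus strand) had 2.65, 2.28, 2.35, 1.35 and 1.2 FPKM in treated Ncoa5+/- mice, against 1.11, 0.593 and 1.15 FPKM in treated wild type mice. These groups did not overlap, though the lowest Ncoa5+/- mouse lay next to the highest wild type mouse. The log2 fold change was 0.59 ± 0.23 (limma p 0.0230, adjusted p 1.0), and the exact permutation p was 0.0357, or 0.179 adjusted over the 5 comparisons. Without metformin at 39 weeks the gene overlapped fully, with 1.04 to 2.44 FPKM in Ncoa5+/- mice against 0.943 to 2.30 FPKM in wild type mice (log2 fold change 0.11 ± 0.21, limma adjusted p 0.967). The interaction was 0.48 ± 0.32 with an adjusted p of 0.991 (limma), so the genotype difference with metformin was not shown to differ from that without.

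At 20 weeks Ccne1 had 1.59, 0.955, 3.69 and 1.79 FPKM in Ncoa5+/- mice, against 0.977, 1.09, 0.563 and 0.284 FPKM in wild type mice. All but replicate 2 of the Ncoa5+/- mice exceeded every wild type mouse. limma gave a log2 fold change of 0.75 ± 0.28 (p 0.0246, adjusted p 0.603), and the exact permutation p was 0.0857, or 0.214 adjusted. The size depended on the pseudocount, with 1.32 at 0.1 and 0.28 at 5, and over 18 other settings the limma adjusted p ran from 0.0755 to 0.970. Without Ncoa5+/- replicate 2 the exact permutation p was 0.0286, the smallest that 3 against 4 mice allow. The authors' deposited table lists 1.88 against 0.689 FPKM, a log2 fold change of 1.45 and q = 0.0136, in a table where 2.10% of 13975 tested loci have q under 0.05. Ccne1 is 1 of the 10 genes past that threshold there, and the other 9 are not. The authors' fold change is on FPKM without a pseudocount, so the 2 values are on different scales.

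Ccne2 (cyclin E2, chr4:11191351-11204779, plus strand) ranged from 0.488 to 1.53 FPKM in untreated Ncoa5+/- mice against 0.620 to 1.87 FPKM in untreated wild type mice at 39 weeks. Treated mice had 0.457 to 1.78 FPKM with the Ncoa5+/- label against 0.801 to 1.25 FPKM in wild type. At 20 weeks it had 0.295 to 1.67 FPKM in Ncoa5+/- mice against 0.621 to 1.02 FPKM in wild type mice. Every pair overlapped, and the 39-week log2 fold changes were -0.19 ± 0.21 and -0.05 ± 0.23 (limma adjusted p 0.931 and 1.0). Of its exonic bases, 609 (17.4%) are shared with the opposite-strand gene Ints8, which averaged 5.78 to 6.26 FPKM in the 39-week groups, and the part of that overlap in the Ccne2 values was not tested.

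Of the kinases, Cdk4 had the highest level and differed little between the genotype labels. Cdk4 (chr10:127063534-127067920, plus strand), the partner of D-type cyclins, had 25.5, 30.4, 28.1, 28.4 and 34.5 FPKM in untreated Ncoa5+/- mice, against 26.0, 25.9, 32.2 and 35.9 FPKM in untreated wild type mice. The log2 fold change was -0.02 ± 0.12 with an interval of -0.28 to 0.23, and under metformin it was 0.03 ± 0.13 with an interval of -0.25 to 0.31 (limma adjusted p 0.994 and 1.0). The Cdk4 locus of the authors also spans the end of Tspan31, and 19.7% of the exonic bases of Cdk4 are shared with that opposite-strand gene. Group means of Tspan31 ran from 169 to 184 FPKM at 39 weeks. The part of that overlap in the Cdk4 values, and so in their level and steadiness, was not tested. Cdk6 (chr5:3341485-3531008, plus strand), the other partner, had 6.21, 5.01, 8.54, 6.59 and 5.72 FPKM in untreated Ncoa5+/- mice, against 5.49, 8.30, 4.26 and 5.31 FPKM in untreated wild type mice. It had 4.26 to 7.15 FPKM in treated Ncoa5+/- mice against 4.02 to 5.60 FPKM in treated wild type mice. Both pairs overlapped, and the log2 fold changes were 0.13 ± 0.17 and 0.33 ± 0.19 (limma adjusted p 0.946 and 1.0). At 20 weeks Cdk6 had 0.933 to 2.95 FPKM in Ncoa5+/- mice against 1.67 to 3.21 FPKM in wild type mice (log2 fold change -0.27 ± 0.25, limma adjusted p 0.668).

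Cdk2 (chr10:128697939-128705031, minus strand), the partner of cyclin E, had the smallest limma p for metformin among the 10 genes in Ncoa5+/- mice and over both genotypes, but not in wild type mice, and it did not pass. Treated Ncoa5+/- mice had 6.52, 6.76, 7.85, 5.55 and 6.69 FPKM, against 5.66, 5.87, 5.89, 5.80 and 4.68 FPKM in untreated Ncoa5+/- mice. All but replicate 4 of the treated mice lay above all untreated mice, and that mouse lay within their range. Its log2 fold change was 0.22 ± 0.09 (limma p 0.0227, adjusted p 0.514), and the exact permutation p was 0.0397, or 0.198 adjusted over the 5 comparisons. In wild type mice the values were 7.35, 6.60 and 6.87 FPKM with metformin and 5.20, 6.99, 5.91 and 5.61 FPKM without, which overlapped (log2 fold change 0.20 ± 0.10, limma adjusted p 0.576). Over both genotypes, a comparison added after these values were seen, the log2 fold change was 0.21 ± 0.07 (p 0.00720, adjusted p 0.159, limma). There 0 of the 10 genes and 0.0350% of all loci passed, and at an unadjusted p under 0.05 there were 2 of the 10 (Cdk2 higher, Ccnd1 lower) and 15.2% of all loci. Between the genotypes Cdk2 differed by -0.07 ± 0.09 without and -0.05 ± 0.10 with metformin (limma adjusted p 0.942 and 1.0).

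Taking metformin within a single genotype, 0 of the 10 genes passed limma in Ncoa5+/- mice and 0 in wild type mice, as did 0% of all loci in each. At an unadjusted p under 0.05 there was 1 of the 10 (Cdk2) against 8.83% of all loci in Ncoa5+/- mice, and 1 (Cdkn2c) against 9.35% in wild type mice, so neither count stands above the background. No gene of the 10 had groups without overlap in Ncoa5+/- mice, against 1.57% of all loci. The authors' deposited table of metformin in Ncoa5+/- mice, in which 1.22% of 14159 loci have q under 0.05, lists Ccnd1 at a log2 fold change of -0.30 (q = 0.714) and Cdk2 at 0.28 (q = 0.980). The interaction of genotype and metformin passed for 0 of the 10 genes and 0% of all loci, and at an unadjusted p under 0.05 for 0 of the 10 and 2.79% of all loci. The metformin and genotype comparisons share groups, so their values for a gene are not independent.

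**Figure D3:**
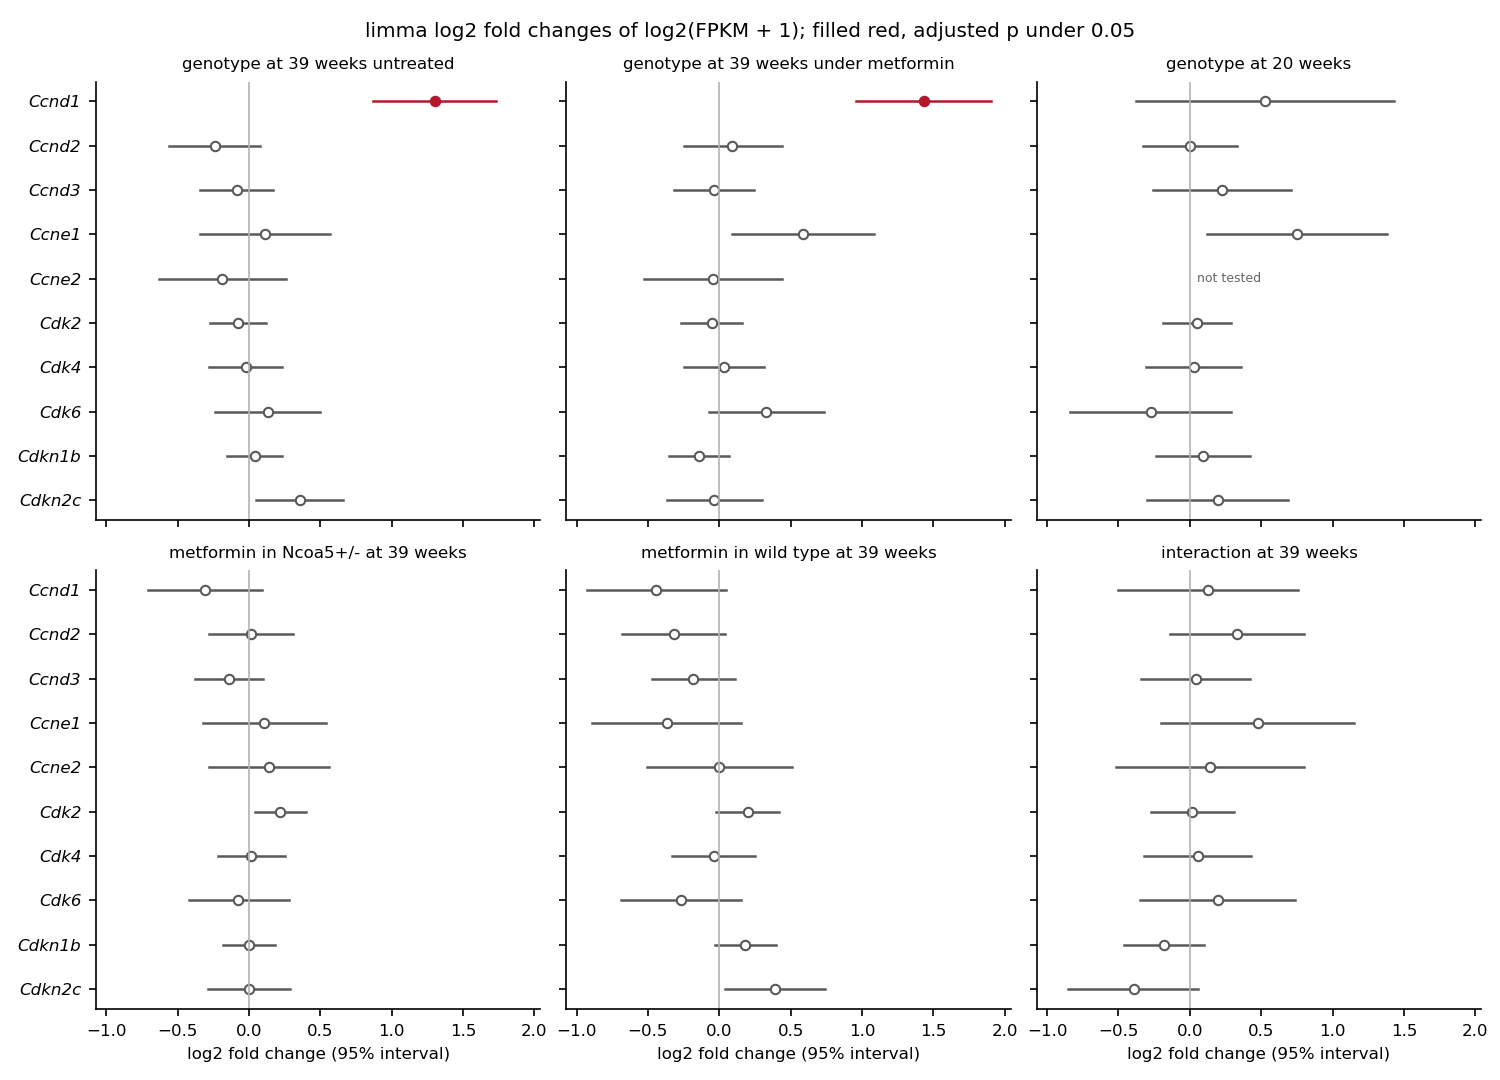
limma log2 fold changes (horizontal axis, on log2(FPKM + 1)) of the 10 genes with 95% intervals in 6 comparisons; filled red points passed an adjusted p of 0.05. Ccnd1 stands at 1.30 and 1.43 in the 39-week genotype comparisons, and the other 9 genes lie between -0.24 and 0.36 without metformin and between -0.14 and 0.59 with it.

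The inhibitors among the 10 genes did not pass in any comparison. Cdkn1b (p27, chr6:134920401-134925513, plus strand) had 10.3, 10.4, 10.7, 10.6 and 9.06 FPKM in treated Ncoa5+/- mice, against 10.8, 12.1 and 11.2 FPKM in treated wild type mice. All 5 lay below all 3, by a narrow margin, with a log2 fold change of -0.14 ± 0.10 (limma adjusted p 1.0) and an exact permutation p of 0.0357, or 0.179 adjusted over the 5 comparisons. Untreated mice overlapped, with 8.46 to 11.6 FPKM with the Ncoa5+/- label against 9.36 to 11.2 FPKM in wild type (0.04 ± 0.09, limma adjusted p 0.973). Cdkn2c (p18, chr4:109660876-109667189, minus strand) had 3.14, 2.65, 5.16, 3.22 and 2.79 FPKM in untreated Ncoa5+/- mice, against 3.03, 2.18, 2.0 and 2.32 FPKM in untreated wild type mice. The groups overlapped through wild type replicate 1, and replicate 3 of the Ncoa5+/- mice, a library with over 70% of its FPKM sum in 50 loci, stood above the rest. The log2 fold change was 0.36 ± 0.14 (limma p 0.0247, adjusted p 0.797; exact permutation p 0.0635). Under metformin it was -0.04 ± 0.16, and metformin in wild type mice gave 0.39 ± 0.16 (p 0.0293, adjusted p 0.478, limma), with 2.91 to 3.71 FPKM in treated mice against 2.0 to 3.03 FPKM in untreated mice. At an unadjusted p under 0.05, genotype had 2 of the 10 genes without metformin (Ccnd1 and Cdkn2c, against 5.62% of all loci), 2 with it (Ccnd1 and Ccne1, against 4.35%) and 2 over both treatments (Ccnd1 and Ccne1, against 6.20%).

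Cdkn1a, which encodes p21, a CIP/KIP inhibitor that binds complexes of cyclin D and its kinases, is no member of the list and is given because it is the inhibitor that moved with Ccnd1. It had 117, 17.7, 15, 18.3 and 33.5 FPKM in untreated Ncoa5+/- mice, against 1.28, 2.68, 1.71 and 1.56 FPKM in untreated wild type mice (log2 fold change 3.43 ± 0.45, limma adjusted p 0.00170). Under metformin it had 24.5, 15, 14.4, 11.3 and 25.7 FPKM with the Ncoa5+/- label against 1.06, 0.684 and 0.673 FPKM in wild type (3.35 ± 0.49, limma adjusted p 0.00886). The adjusted p was 0.0653 without metformin when those 2 groups were fitted alone. Under metformin it was 0.0725 and 0.0604 without wild type replicate 2 or 3, and 0.174 with a pseudocount of 5. At 20 weeks the Ncoa5+/- mice had 8.04, 0.666, 10.4 and 1.58 FPKM, against 0.592, 0.499, 1.08 and 0.499 FPKM in wild type mice. The mice high in Cdkn1a at 20 weeks, replicates 1 and 3, are those high in Ccnd1.

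Within the 10 Ncoa5+/- mice at 39 weeks, however, no close tie of the 2 genes was shown, and these few mice do not settle it. Pearson's r of the log2(FPKM + 1) values was 0.21 (permutation p 0.552) and Spearman's rho 0.47 (permutation p 0.178, adjusted over the 2 measures 0.356). Without the 2 mice farthest from the median of Cdkn1a, untreated replicates 1 and 5, r was 0.69 (permutation p 0.0559) and rho 0.62 (permutation p 0.115). Within the 5 treated mice r was 0.86 and within the 5 untreated mice -0.44, given as values only. Untreated replicate 1 had 117 FPKM of Cdkn1a, the highest of these mice, and 16.2 FPKM of Ccnd1. No trend was fitted.

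**Figure D4:**
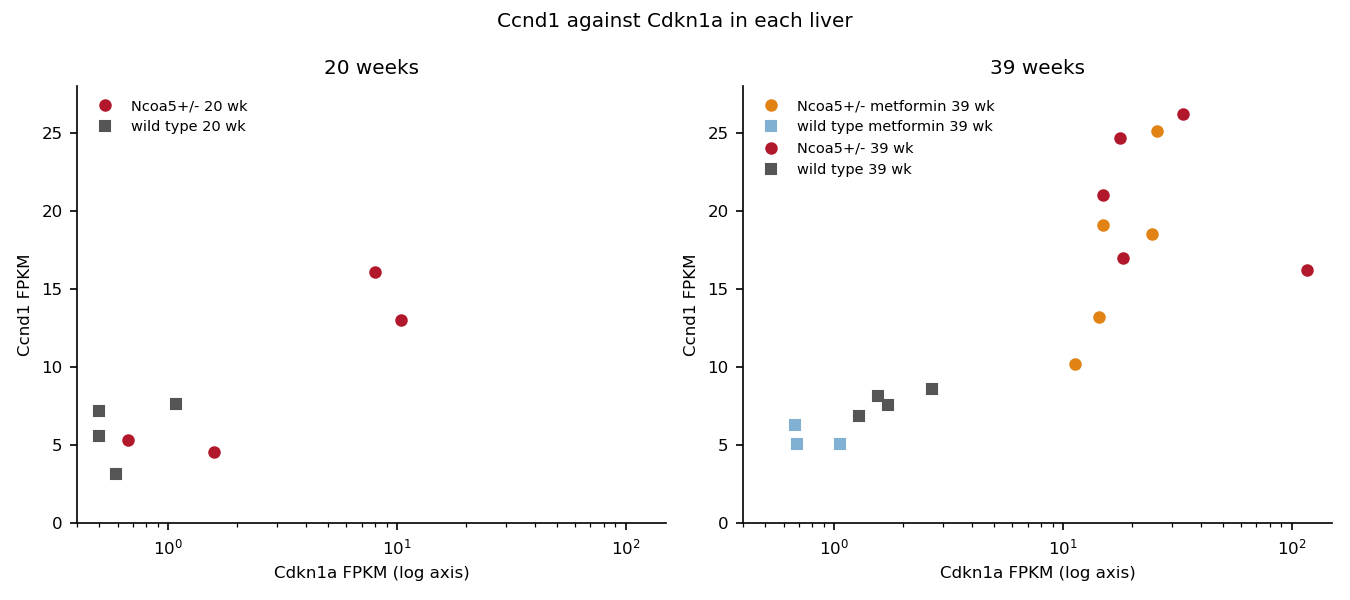
Ccnd1 FPKM (vertical) against Cdkn1a FPKM (horizontal, log axis) in each mouse at 20 weeks (left) and 39 weeks (right); circles are Ncoa5+/- and squares wild type mice. The 10 Ncoa5+/- mice at 39 weeks lie above and to the right of all 7 wild type mice, and at 20 weeks 2 of 4 do.

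The rest of the pathway was read from lists of genes, counted by limma over all loci. Of the tested loci, 0 of 12 of the RB and E2F list passed in either 39-week genotype comparison. So did 0 of 15 of the S-phase and E2F target list and 0 of 3 of the mitotic list. For activation and turnover of the G1 kinases it was 0 of 19, and for the mitogenic inputs 0 of 18. Over all loci, 0.262% passed without metformin and 0.157% with it. Of the 20 mitotic genes listed, 17 lay under the filter of 1 FPKM, so most of that list was not tested. Of 3 other CDK inhibitors tested, 1 passed in each (Cdkn1a), and of 23 other cyclins and kinases tested 1 passed without metformin (Ccng1) and 0 with it. The median log2 fold change of the S-phase list was 0.01 without and 0.05 with metformin, beside -0.017 and -0.006 over all loci. That of the mitogenic inputs was -0.15 and 0.13. By limma, neither at 20 weeks nor for metformin within a genotype did a gene of these 7 lists pass, where 0% of all loci passed. In the authors' deposited tables Cdkn1a had a log2 fold change of 2.92 (q = 0.00413) for genotype at 20 weeks. For metformin in Ncoa5+/- mice it had -1.11 (q = 0.00668) there. The limma values, on log2(FPKM + 1), were 1.47 ± 0.58 (adjusted p 0.603) and -0.70 ± 0.42 (adjusted p 0.654), so the 2 analyses differ on these calls. The untreated Ncoa5+/- mean of 40.3 FPKM at 39 weeks includes replicate 1 at 117 FPKM.

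Ccng1, which encodes cyclin G1, a known target of p53, averaged 25.8 ± 12.0 FPKM in untreated Ncoa5+/- mice against 10.6 ± 0.578 FPKM in untreated wild type mice, without overlap. Its log2 fold change was 1.11 ± 0.22 with an adjusted p of 0.0464 (limma). Under metformin it averaged 21.8 ± 3.20 FPKM against 8.60 ± 0.966 FPKM, with 1.24 ± 0.24 and an adjusted p of 0.0510, and over both treatments 1.17 ± 0.16 with an adjusted p of 0.00106. The call without metformin held in 7 of 28 other settings, with adjusted p from 0.0122 to 0.397, and that over both treatments in 27 of 27. Cdk1, the mitotic kinase, had the smallest p of the 3 mitotic genes tested. It averaged 1.56 ± 0.362 FPKM in untreated Ncoa5+/- mice against 0.829 ± 0.375 in wild type, and 2.12 ± 0.668 against 1.19 ± 0.254 under metformin. Its log2 fold changes were 0.50 ± 0.17 and 0.49 ± 0.19 (limma adjusted p 0.641 and 1.0). Tk1, a thymidine kinase of the S-phase list, ran the other way under metformin, at 17.1 ± 2.62 FPKM in Ncoa5+/- mice against 24.6 ± 2.16 FPKM in wild type mice (-0.51 ± 0.17, limma adjusted p 0.820). Met, the receptor of hepatocyte growth factor, was at 13.4 ± 1.07 FPKM against 16.6 ± 1.26 FPKM without metformin (-0.29 ± 0.10, limma adjusted p 0.578). Fos, a subunit of the AP-1 transcription factor, had the lowest log2 fold change of the 7 lists for genotype without metformin and did not pass (-1.87 ± 0.81, limma adjusted p 0.845): untreated Ncoa5+/- mice had 0.459 to 1.22 FPKM against 0.320 to 76.5 FPKM in untreated wild type mice, whose SD of 37.0 FPKM exceeded their mean of 21.3 FPKM. The groups overlapped, and under metformin the value was 0.18 ± 0.89 (adjusted p 1.0). Rb1 appears at 2 loci in the tables and its values are not interpreted.

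**Figure D5:**
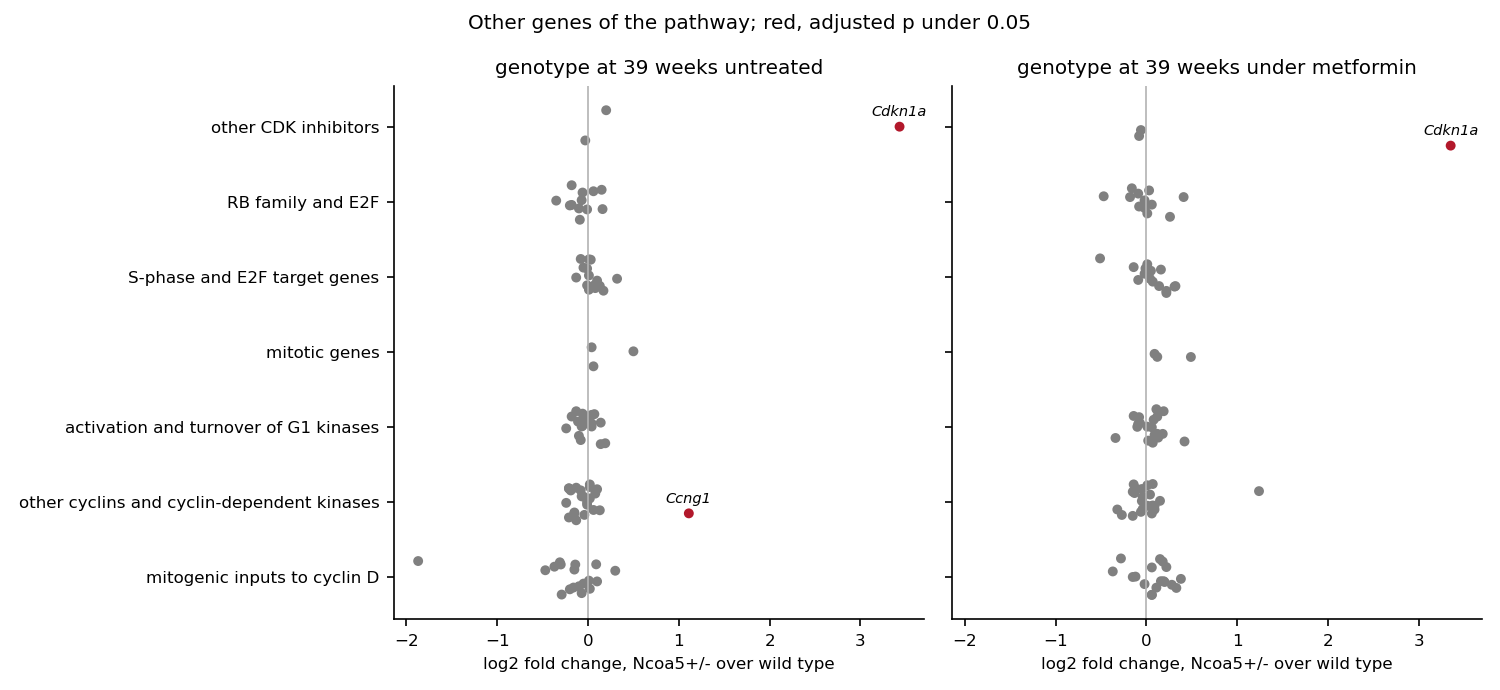
limma log2 fold changes (horizontal axis) of the tested genes of 7 pathway lists in the 39-week genotype comparisons, without (left) and with metformin (right); each point is a locus, jittered vertically, and red points passed an adjusted p of 0.05. Cdkn1a stands at 3.43 and 3.35 and Ccng1 at 1.11, and Fos, which did not pass and whose groups overlap, is the point at -1.87 on the left.

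Among tested loci with a single regular gene symbol (no Gm number or Rik name), those most like Ccnd1 at 39 weeks were Mgat5 (0.89), Gstm3 (0.87), Cdkn1a (0.87), Tmem43 (0.87) and Rpl17-ps5 (0.85). The measure was Pearson's r of log2(FPKM + 1) over the 17 mice, and loci with other symbols were left out of the ranking. The mice form 2 clusters by genotype label, so these values are a description of loci that share that split, with no p. Within the 10 Ncoa5+/- mice the same loci had r of 0.32, 0.49, 0.21, 0.16 and 0.52. Over the 8 mice at 20 weeks they had 0.85, 0.41, 0.84, 0.67 and 0.06, so Mgat5 and Cdkn1a had the highest r there. The 20-week values also pool both genotype labels and are a description. Ncoa5+/- replicates 1 and 3 were the highest of those mice in both Ccnd1 and Cdkn1a. Mgat5, an enzyme that branches N-glycans, averaged 3.77 ± 0.418 FPKM in untreated Ncoa5+/- mice against 1.70 ± 0.247 in wild type, and 3.19 ± 0.449 against 1.59 ± 0.171 under metformin. Gstm3, a glutathione transferase, averaged 87.3 ± 23.2 FPKM against 45.8 ± 4.63 FPKM without metformin and 68.3 ± 10.8 FPKM against 33.2 ± 2.61 FPKM with it. Rpl17-ps5 is annotated as a pseudogene by its name and may share reads with its parent gene, so its value is uncertain.

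In bulk liver, fewer cells of a type and less RNA per cell cannot be told apart. Of 57 loci from 8 lists of cell type markers tested at 39 weeks and 48 at 20 weeks, 0 passed limma in any of the comparisons, where 0.262% and 0.157% of all loci passed for genotype at 39 weeks and 0% at 20 weeks. Signs within a list were often shared. For genotype without metformin at 39 weeks and at 20 weeks, 0 of the 12 markers of Kupffer cells and macrophages had a positive log2 fold change (medians -0.33 and -0.59), and under metformin 2 of 12 had one (median -0.07). Lymphocyte markers were positive for 5 of 5 at 39 weeks both without and with metformin (medians 0.44 and 0.16). Hepatocyte markers were positive for 7 of 8 at 20 weeks (median 0.42), and for 3 of 9 and 2 of 9 at 39 weeks without and with metformin. In the order 39 weeks without metformin, with it, and 20 weeks, endothelial markers were positive for 1 of 11, 8 of 11 and 2 of 11. Stellate and fibroblast markers had 6 of 10, 6 of 10 and 0 of 7, and erythroid markers 0 of 5, 4 of 5 and 5 of 5. Cholangiocyte markers had 2 of 3, 3 of 3 and 1 of 1 (medians 0.37, 0.06 and 0.14). Neutrophil markers had 0 of 2, 0 of 2 and 2 of 2 (medians -0.40, -0.15 and 0.98). The part of these differences in the values of the 10 genes was not tested. The hepatocyte markers summed to 12559 to 16951 FPKM in untreated Ncoa5+/- mice against 12477 to 15789 FPKM in untreated wild type mice, and to 12074 to 15008 FPKM against 14045 to 14467 FPKM under metformin, with Serpina1c of the 10 listed at 0. Markers of Kupffer cells and macrophages, all 12 of them above 0, summed to 191 to 518 FPKM against 291 to 747 FPKM without metformin and 326 to 467 FPKM against 359 to 472 FPKM with it. At 20 weeks they summed to 68.9 to 120 FPKM in Ncoa5+/- mice against 80.8 to 212 FPKM in wild type mice. T and B lymphocyte markers stood out in 2 mice, at 158 FPKM in treated Ncoa5+/- replicate 5 and 292 FPKM in untreated Ncoa5+/- replicate 1, against 17 to 59.5 FPKM in the other 15 mice at 39 weeks. Ccnd1 in those mice was 25.1 and 16.2 FPKM, 1 of the highest and 1 of the lower Ncoa5+/- values, and its log2 fold change stayed between 1.22 and 1.39 without metformin and between 1.29 and 1.59 with it when any 1 mouse was left out.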

How the data were processed

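Total liver RNA was extracted with TRIzol and RNeasy and sequenced in 2 cohorts prepared at different facilities, per the labels' protocols. Per the submitters' processing notes, the tools were Trimmomatic 0.33, TopHat2, Cufflinks and Cuffnorm, with the build GRCm38.p5; other versions and the strand setting are not given in the sources used here. The deposited values per mouse are FPKM, which the authors normalized within each cohort. The authors' deposited comparison tables also give, for each locus, the log2 fold change with its p-value and q-value; fold changes were turned so that positive means higher in Ncoa5+/- or treated mice. The files hold no read counts, so no count test could be run, and precision rests on the spread between mice. No pair of the 164 library pairs within a cohort was identical.

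Values were analysed as log2(FPKM + 1) over loci averaging 1 FPKM or more in a cohort, with limma 3.58.1 in R 4.3.3 (eBayes with a trend, 4 groups in 1 fit at 39 weeks, 2 at 20 weeks). A locus was left out as a failed estimate where 1 group was wholly at 0 and another group averaged 1 FPKM or more with no mouse at 0. Benjamini-Hochberg adjusted p under 0.05 over all loci was the threshold; a fold change on this scale understates the change of low genes. Single genes were compared by exact permutation tests in Python 3.11.15 with scipy 1.17.1, and correlations by 100000 permutations. The limma script was tested on simulated data. The 10 genes, the pathway lists and the marker lists were chosen with earlier results of these data known. All 10 genes are named; of a pathway list, genes past the threshold and otherwise at most 3 with the smallest p; Fos was named after its value was seen. Alternatives were other pseudocounts (0.1 and 5), filters and scalings, array weights or no trend in limma, a fit of only the compared groups, and omission of each mouse in turn. Metformin over both genotypes was added after the data were seen.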

Additional observations from a re-analysis of the deposited data

Results flagged for a closer look

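In 6 of 50 groups of 4 or 5 mice examined over the 10 genes, 1 mouse stood apart from the others by Dixon's test at the 95% level; chance alone flags about 1 in 20 groups. Cdkn2c was 5.16 FPKM in untreated Ncoa5+/- replicate 3 at 39 weeks, against 2.65 to 3.22 FPKM in the other 4 mice, and 2.49 FPKM in Ncoa5+/- metformin replicate 3, against 3.40 to 3.75 FPKM. Cdkn1b was 9.06 FPKM in Ncoa5+/- metformin replicate 5, against 10.3 to 10.7 FPKM in the others of its group, and 11.2 FPKM in untreated wild type replicate 4 at 39 weeks, against 9.36 to 9.52 FPKM. Cdk2 was 4.68 FPKM in untreated Ncoa5+/- replicate 5 at 39 weeks, against 5.66 to 5.89 FPKM. Ccne2 was 1.02 FPKM in wild type replicate 3 at 20 weeks, against 0.621 to 0.685 FPKM. None of these mice is an outlier of its group in Ccnd1.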

How the results depend on the processing

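Ccnd1 passed in 28 of 28 other settings for genotype at 39 weeks without metformin (log2 fold change 1.01 to 1.40, limma adjusted p 0.00198 to 0.0340) and in 27 of 27 over both treatments (1.03 to 1.48). Under metformin it passed in 24 of 28. With the compared groups alone, 0 of the 10 genes passed there, with Ccnd1 at 1.43 (adjusted p 0.127). With 1 mouse left out, 0 to 1 of the 10 passed and the Ccnd1 fold change ran from 1.29 to 1.59. Fewer mice leave fewer degrees of freedom; the cause was not tested further. The Ccnd1 interaction ran from -0.01 (without Ncoa5+/- metformin replicate 5) to 0.29 (without replicate 4) with 1 mouse left out, and was -0.01 without the 2 libraries of that cohort over 70%. In the other comparisons 0 of the 10 genes passed under any setting. The loci passing over the whole table ranged from 11 (compared groups alone) to 38 (failed estimates kept) without metformin, from 4 to 31 under it, from 0 to 69 for metformin over both genotypes, and up to 13 at 20 weeks. The replicate numbers are given in accession order. No paired analysis was possible because the labels give no numbers shared between groups. Unknown read depth limits statements on genes near 1 FPKM, such as Ccne1 and Ccne2, and 3 treated wild type mice limit those under metformin.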
